A study of Mus musculus with 18 samples.

Results

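Knockdown of Pcbp2 in cultured mouse fetal liver progenitors at Day 0 was described from 6 of the 18 libraries of the series, chosen by their titles. The 3 knockdown libraries each carried a different hairpin against Pcbp2 (numbers 1, 3 and 4, here PCBP2-SH1, PCBP2-SH3 and PCBP2-SH4). The 3 control libraries carried 2 scrambled hairpins (SCR-1 and SCR-2) and 1 luciferase hairpin (LUC-1). All cells came from the livers of CD-1 embryos at embryonic day 14.5, were enriched for hematopoietic progenitors by an antibody selection that included CD71, and received short hairpin RNAs (shRNAs) by MSCV-PIG retrovirus, which carries puromycin resistance and GFP. They then spent 48 hours in a medium with dexamethasone, erythropoietin and stem cell factor, in which erythroid progenitors multiply, and were collected as Day 0. The series also holds 3 PCBP1 knockdown libraries of Day 0 and the same 3 conditions 2 days into differentiation. Its design text states that it examines both proteins in mouse erythropoiesis. The sources used here do not say whether the libraries came from separate cultures or litters, so every p-value measures only the spread between these samples.

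PCBP2 is a poly(C)-binding protein: its KH domains bind single-stranded RNA at short stretches of C. The family takes part in alternative splicing, mRNA stability (with α-globin mRNA as the classic erythroid target) and translation, and its members also act as iron chaperones. PCBP1 arose by retroposition from a PCBP2 transcript, and the proteins are close relatives that are often studied together for shared function.

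The libraries held 32040290 to 54096339 estimated reads in the PCBP2 knockdown and 31109684 to 36564306 in the controls. PCBP2-SH3 was the deepest and stood apart: on the first principal component of the 9 Day 0 libraries (43.9% of the variance) it lay at 8.74, against -6.91 and -9.34 for the other hairpins, -13.7 to -8.51 for the controls and 11.3 to 15.5 for the PCBP1 knockdown. The rank correlation of a gene's deviation with its GC content was -0.46 in PCBP2-SH3, 0.296 and 0.269 in PCBP2-SH1 and PCBP2-SH4, and 0.252 to 0.582 in the controls. The 6 called genes and the counts of the cholesterol, ribosomal and macrophage lists are also given without PCBP2-SH3. Kit, the stem cell factor receptor, ranged over 610 to 710 CPM (counts scaled to library size) in the knockdown and 625 to 655 CPM in the controls, and Gata1, the erythroid master regulator, over 217 to 243 CPM in the knockdown and 242 to 249 CPM in the controls. Cd3e, a T cell receptor component, stayed below 0.1 CPM in all 6 libraries, whereas Mpo, a granulocyte enzyme, lay at 889 to 958 CPM in the knockdown and 904 to 977 CPM in the controls. In such bulk samples, fewer cells of a type and less RNA per cell cannot be told apart.

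Pcbp2 fell to 24.6% of its mean control level, and to much the same level with each hairpin. Its normalised counts were 119, 116 and 122 CPM with PCBP2-SH1, PCBP2-SH3 and PCBP2-SH4, against 477, 480 and 500 CPM in SCR-1, SCR-2 and LUC-1. The groups were far apart and the hairpins gave almost equal values. The log2 fold change was -2.02 (SE 0.05; edgeR quasi-likelihood test, adjusted p = 5.57e-11).

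The relatives of PCBP2 did not pass the test. Pcbp1, its intronless paralog, had 324, 296 and 353 CPM in the knockdown and 314, 332 and 345 CPM in the controls, and the groups overlapped. The log2 fold change of Pcbp1 was -0.03 (SE 0.32). Hnrnpk, the other widely expressed protein of this KH-domain family, averaged 1079 ± 7.02 CPM in the knockdown and 1033 ± 18.6 CPM in the controls (SD, n = 3 each), with a log2 fold change of 0.06 (SE 0.04). Pcbp4 and Pcbp3 were scarce, with 4.56 to 6.04 and 6.43 to 11.9 CPM in the knockdown, against 5.72 to 6.93 and 9.97 to 13.1 CPM in the controls, and log2 fold changes of -0.29 (SE 0.13) and -0.23 (SE 0.18).

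At this stage the knockdown moved few genes past the threshold. Of 15782 genes tested, 6 fell and 0 rose at an adjusted p under 0.05 (0.038% of genes called; edgeR quasi-likelihood test), Pcbp2 among them. At an unadjusted p under 0.05, 834 genes were lower (5.28%) and 557 higher (3.53%). DESeq2 called 88 genes on the same counts, 67 lower and 21 higher, with the 6 among them. Leaving out LUC-1 gave 25 calls, 16 lower and 9 higher, again with the 6 among them.

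Among the 6 called genes, Btbd2 had the largest change after the target. It encodes a BTB-domain protein known to bind topoisomerase I. Its counts were 3.54, 3.86 and 4.25 CPM in the knockdown and 12.02, 10.04 and 11.3 CPM in the controls. Every knockdown library lay well below every control, and their mean was 34.8% of the control mean. The log2 fold change was -1.52 (SE 0.14; edgeR adjusted p = 0.000858).

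Cdc25b and Depdc1b, a pair of genes of the G2 to M transition, fell to the same degree. Cdc25b encodes a phosphatase that activates CDK1 at mitotic entry, and Depdc1b a DEP-domain protein required for timely mitotic entry in other systems. Cdc25b had 28.1, 27.1 and 34.1 CPM in the knockdown and 50.6, 52.98 and 47.8 CPM in the controls. The groups did not overlap, and PCBP2-SH4 was the highest of the hairpins. Its log2 fold change was -0.76 (SE 0.09; edgeR adjusted p = 0.00468). Depdc1b had 15.2, 16.2 and 14.6 CPM in the knockdown and 26.1, 27.8 and 23.99 CPM in the controls, again without overlap. Its log2 fold change was -0.76 (SE 0.08; edgeR adjusted p = 0.00192).

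Smaller falls were called for Clstn1, a calsyntenin that links vesicles to kinesin, and Ly6e, a GPI-anchored surface protein. Clstn1 had 50.9, 46.5 and 45.2 CPM in the knockdown and 62.8, 62.99 and 64.5 CPM in the controls, a log2 fold change of -0.42 (SE 0.06; edgeR adjusted p = 0.0341). Ly6e had 145, 156 and 154 CPM in the knockdown and 187, 198 and 196 CPM in the controls, a log2 fold change of -0.35 (SE 0.05; edgeR adjusted p = 0.0397). In both genes the groups were separate. Without PCBP2-SH3, Pcbp2, Btbd2, Depdc1b and Cdc25b kept their calls, with log2 fold changes of -1.999, -1.51, -0.79 and -0.69. Clstn1 and Ly6e lost theirs, at -0.39 (edgeR adjusted p = 0.137) and -0.37 (edgeR adjusted p = 0.0904). Both calls were also lost once each library's GC trend was taken out, at -0.29 for Clstn1 and -0.30 for Ly6e (edgeR adjusted p = 0.282 and 0.156).

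**Figure D1:**
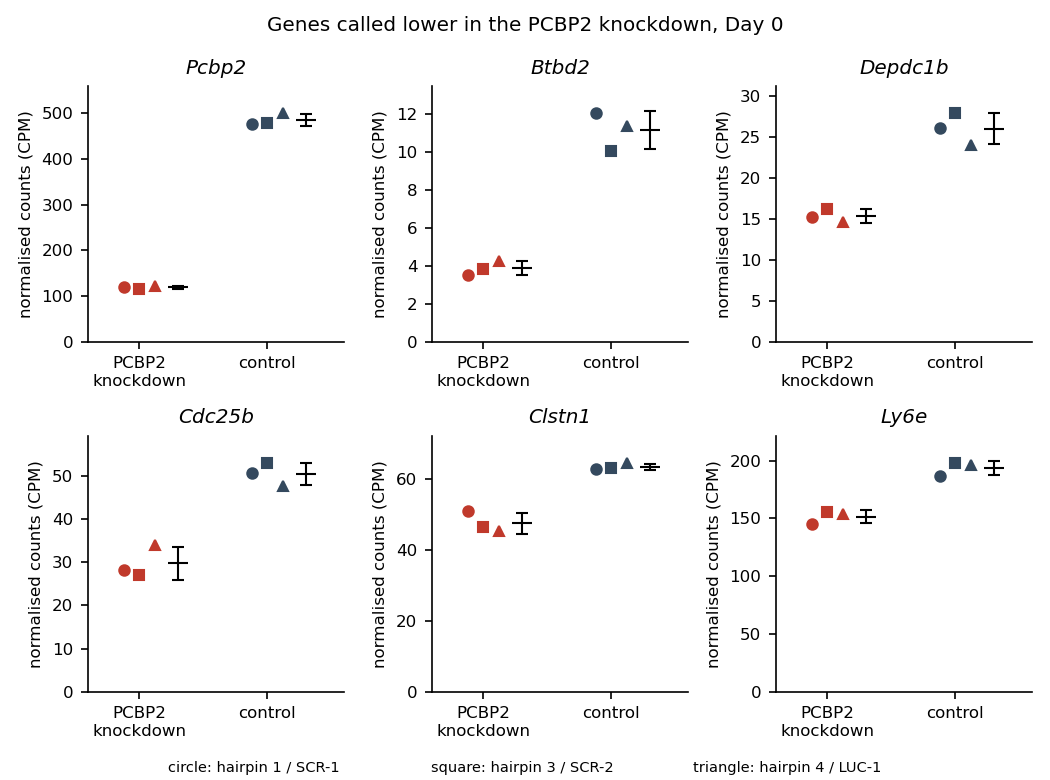
Normalised counts (CPM) of the 6 called genes in each Day 0 library, PCBP2 knockdown left and control right, with mean and SD (n = 3 each) beside the points. In every panel all knockdown libraries lie below all controls, and the knockdown mean, as a share of the control mean, is lowest for Pcbp2 (24.6%) and highest for Ly6e (78.3%).

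The deposited splicing table compares the pooled Day 0 knockdown with the pooled Day 0 control. It lists local splicing variations, each being all junctions, and any retained intron, on 1 side of an exon, and gives for each junction its share of use (PSI). These pooled values carry no replicate error, so the PSI values below are the authors' and untested here. Of 122133 variations in 10156 genes, 14 in 12 genes (0.0115% of variations) had a junction with a posterior probability of at least 0.95 for a change of 20 points or more. Cassette exons came out in 4 of these genes, and their sequences, read from GENCODE M21 transcripts on GRCm38, show how much C each offers. Runs of 3 or more C are in capitals. All are printed 5′ to 3′ on the sense strand.
Runx1 exon 6, chr16:92644154-92644345, minus strand: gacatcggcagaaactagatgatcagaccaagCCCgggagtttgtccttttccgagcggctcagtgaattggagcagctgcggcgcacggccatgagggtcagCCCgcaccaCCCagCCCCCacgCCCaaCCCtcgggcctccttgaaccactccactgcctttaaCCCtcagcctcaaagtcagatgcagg
Mfge8 cassette exon, chr7:79143278-79143388, minus strand: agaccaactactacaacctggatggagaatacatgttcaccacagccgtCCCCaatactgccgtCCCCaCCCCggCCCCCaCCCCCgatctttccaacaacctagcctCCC
Srpk2 cassette exon, chr5:23513952-23514044, minus strand: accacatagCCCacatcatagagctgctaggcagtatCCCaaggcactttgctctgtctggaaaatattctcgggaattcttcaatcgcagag
Yeats2 cassette exon, chr16:20207624-20207793, plus strand: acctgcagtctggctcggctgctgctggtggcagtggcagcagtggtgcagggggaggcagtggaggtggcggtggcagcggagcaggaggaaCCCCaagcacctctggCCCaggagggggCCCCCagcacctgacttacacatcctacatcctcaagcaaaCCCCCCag

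Searched on the sense strand alone, as runs that do not overlap, CCC or longer occurred 7 times in the 192 bases of Runx1 exon 6. Among 19485 annotated internal coding-transcript exons within 10% of its length, 4.18% held at least as many. The 111-base Mfge8 exon held 6 such runs, matched or passed by 0.657% of 29538 exons of like length. The Yeats2 exon held 4 in 170 bases (20.0% of 26110 exons) and the Srpk2 exon 2 in 93 bases (28.5% of 23827 exons). The Runx1, Mfge8 and Srpk2 exons are multiples of 3 in length, and the Yeats2 exon is not. A run of C in these windows is a description of the letters and not a binding site.

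Runx1 encodes the DNA-binding subunit of a core hematopoietic transcription factor, and its exon 6 lies between the parts that encode the DNA-binding domain and the activation domain. In the authors' deposited table, the junction that skips exon 6 had a PSI of 65.6% in the knockdown and 34.7% in the control (posterior probability 0.982). The junction that joins exon 6 to the next exon had 32.0% in the knockdown and 62.1% in the control in the authors' deposited table. The balance between the forms was thus turned round between these pools. In the PCBP1 knockdown of Day 0, the authors' deposited table gives a skipping PSI of 36.2%. At Day 2 the authors' deposited table gives 72.6% in the PCBP2 knockdown and 41.0% in its control. The gene's own level was 71.5, 65.6 and 59.5 CPM in the knockdown and 64.7, 58.1 and 57.8 CPM in the controls, which overlapped.

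The other cassette exons moved both ways. Srpk2, an SR-protein kinase that phosphorylates splicing factors, was called on both sides of its 93-base exon. In the authors' deposited table the unannotated junction that skips it had a PSI of 28.1% in the knockdown and 0.6% in the control, measured from the upstream exon (posterior probability 0.918). From the upstream exon, the authors' deposited table gives the skipping junction 0.1% in the PCBP1 knockdown of Day 0. At Day 2 the authors' deposited table gives it 25.4% in the PCBP2 knockdown and 4.7% in its control (posterior probability 0.239). For Yeats2, a histone acylation reader of the ATAC complex, the authors' deposited table gives the skipping junction 69.5% in the knockdown and 31.5% in the control (posterior probability 0.956). The authors' deposited table gives it 56.6% in the PCBP1 knockdown of Day 0 (posterior probability 0.242). For Mfge8, a secreted protein that bridges apoptotic cells to phagocytes, the direction was the opposite. Its exon-joining junction had 49.2% in the knockdown and 15.5% in the control in the authors' deposited table (posterior probability 0.978), and 49.6% in the PCBP1 knockdown. The whole gene was scarce, at 6.54, 5.21 and 5.64 CPM in the knockdown and 6.90, 8.15 and 7.29 CPM in the controls.

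Retained introns were called in 4 genes. The Btbd2 intron at chr10:80647877-80648560 had a PSI of 38.7% in the knockdown and 0.4% in the control in the authors' deposited table (posterior probability 0.993), and 0.7% in the PCBP1 knockdown. Further Btbd2 introns, not called, had 26.8%, 27.3% and 14.3% in the knockdown and 0.3%, 0.1% and 0.2% in the control in the authors' deposited table. Coq10b, a coenzyme Q binding protein of mitochondria, had an intron PSI of 31.5% in the knockdown and 0.1% in the control in the authors' deposited table, and 15.6% in the PCBP1 knockdown. At Day 2 the authors' deposited table gives this intron 0% in the PCBP2 knockdown and 0.1% in its control. The Day 0 level of Coq10b was 14.1, 13.3 and 18.4 CPM in the knockdown and 13.8, 15.9 and 17.6 CPM in the controls, which overlapped.

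Clstn3 and Ikbip went the other way. Clstn3, a relative of Clstn1, had intron PSIs of 1.0% and 0.5% in the knockdown and 45.9% and 38.2% in the control in the authors' deposited table. For the first of these introns the authors' deposited table gives 0.6% in the PCBP1 knockdown, and the second is not listed there. Ikbip had 0.8% in the knockdown and 39.8% in the control in the authors' deposited table, and 4.8% in the PCBP1 knockdown. Both genes were scarce: Clstn3 had 3.90 to 6.04 CPM in the knockdown and 6.23 to 7.98 CPM in the controls, and Ikbip 8.08 to 9.67 CPM in the knockdown and 8.46 to 9.07 CPM in the controls. The share of the pooled reads that came from any single library is not given in the table, so whether every control retained these introns was not tested. The same holds for the Btbd2 and Coq10b introns: whether every knockdown library retained them was not tested. Btbd2 was scarce in the knockdown as well.

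Splice site choice differed in Kctd18, Nrros and Mgl2. The Kctd18 donors lie 22 bases apart at the end of one exon (chr1:57965329-57965410, minus strand), and the bases kept only by the downstream donor are in capitals:
Kctd18 exon end: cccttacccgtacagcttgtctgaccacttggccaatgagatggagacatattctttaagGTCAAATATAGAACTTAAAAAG

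The Kctd18 donor that keeps those bases is used by the annotated protein-coding transcript, whereas the other leads to transcripts annotated for nonsense-mediated decay. In the authors' deposited table its junction had a PSI of 90.6% in the knockdown and 56.8% in the control (posterior probability 0.976). The authors' deposited table gives this junction 80.4% in the PCBP1 knockdown of Day 0 (posterior probability 0.291). For Nrros, which anchors latent TGF-β1, the junction from the most upstream donor had 10.5% in the knockdown and 52.3% in the control in the authors' deposited table. The junction from its most downstream donor had 71.5% in the knockdown and 44.2% in the control in the authors' deposited table. In the PCBP1 knockdown of Day 0 the authors' deposited table gives the upstream and downstream Nrros junctions 41.0% and 45.8%. Mgl2, a macrophage lectin, was called at 51.1% in the knockdown and 16.6% in the control in the authors' deposited table, from a gene with 0.119 to 0.919 CPM in the knockdown and 0.162 to 0.566 CPM in the controls. For the same Mgl2 junction the authors' deposited table gives 49.2% in the PCBP1 knockdown of Day 0. Its alternative was an unannotated junction (chr11:70135686-70169308). The authors' deposited table gives that junction 48.7% in the PCBP2 knockdown and 83.1% in the control. Whether its reads came from other genes was not tested. C920025E04Rik was called on an unannotated junction (chr17:36110035-36143328), at 38.9% in the knockdown and 8.4% in the control in the authors' deposited table. In the PCBP1 knockdown of Day 0 the authors' deposited table gives that junction 14.2%. At Day 2 the authors' deposited table gives it 35.2% in the PCBP2 knockdown and 32.1% in its control. The listed transcript of C920025E04Rik is H2-T-ps-201, annotated as an unprocessed pseudogene. Its Day 0 abundance, scaled to length and library size (TPM), was 0.467 to 1.07 in the knockdown and 0.405 to 0.987 in the controls. Whether reads of this junction came from other genes was not tested. The symbol C920025E04Rik was not among the 15782 genes tested for expression, and the symbol H2-T-ps was not looked up there.

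**Figure D2:**
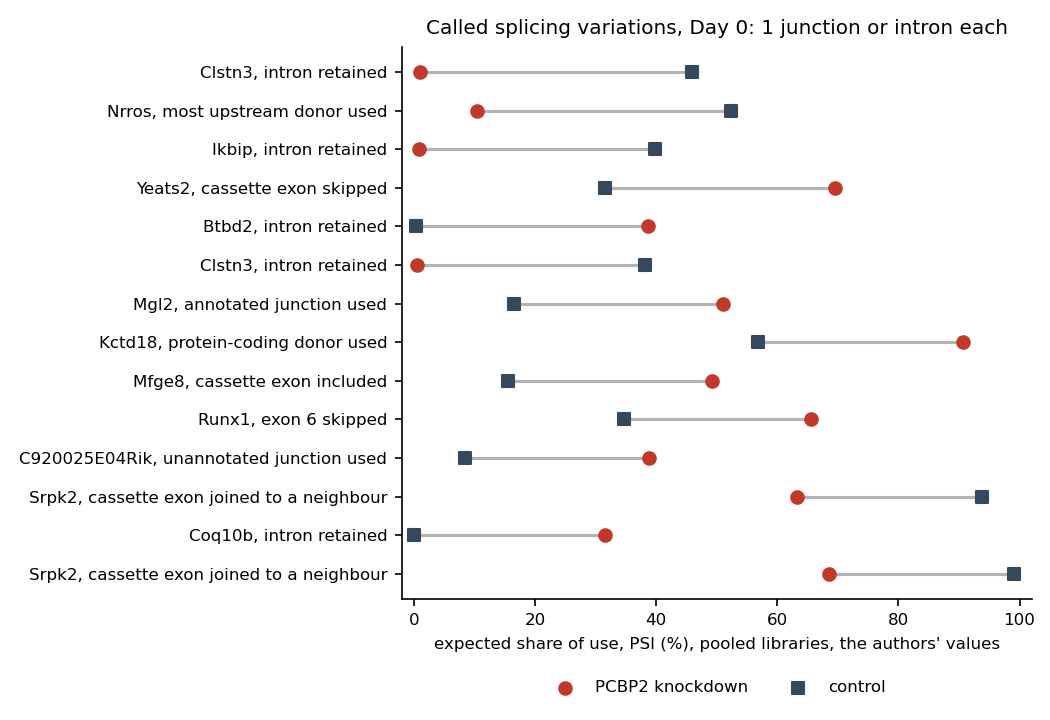
Expected share of use (PSI, %) in the pooled PCBP2 knockdown (circles) and pooled control (squares) of Day 0 for the 14 called variations, from the authors' deposited table, with 1 junction or intron for each and the largest change at the top. Runx1 exon 6 skipping stands at 65.6% in the knockdown and 34.7% in the control, and no error can be drawn since the values are pooled.

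Transcript abundances estimated in each library gave a view of 4 of these events with replicates. The share of Mfge8 transcripts that include the cassette exon was 51.1%, 60.03% and 49.6% in the knockdown and 23.1%, 26.7% and 15.8% in the controls. These groups were well apart, with a difference of 31.7 points. For Kctd18, transcripts with the protein-coding donor made up 68.1%, 75.7% and 60.6% in the knockdown. The controls had 58.9%, 48.5% and 42.4%, without overlap. Among the transcripts counted for that donor is Kctd18-201, annotated as a retained intron. For Nrros, the most upstream donor was used by 53.01%, 41.9% and 66.2% of transcripts in the knockdown and 74.1%, 75.6% and 66.2% in the controls. The closest Nrros libraries were practically equal. Each of these 3 gave p = 0.1 in an exact two-sided permutation test, the smallest p that 3 against 3 allows. The PCBP1 knockdown of Day 0 had mean shares of 43.6% for Mfge8, 66.4% for Kctd18 and 57.4% for Nrros. Those means were 53.6%, 68.2% and 53.7% in the PCBP2 knockdown and 21.9%, 49.9% and 72.0% in the controls.

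Runx1 gave a different picture in these estimates. Transcripts that skip exon 6 made up 40.4%, 46.2% and 44.1% in the knockdown and 40.8%, 40.3% and 40.5% in the controls. The groups overlapped, with a difference of 3.07 points (exact two-sided permutation p = 0.3), against a PSI change of 31.3 points in the authors' deposited table. In GENCODE M21 the skipping and including Runx1 transcripts that carried the estimates also differ in their first and last exons, so a share of transcripts is not a direct count of the junctions. At Day 2 the same estimates put the skipping share at 51.5%, 53.95% and 57.03% in the PCBP2 knockdown. The Day 2 controls had 39.02%, 42.3% and 36.5%, without overlap.

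**Figure D3:**
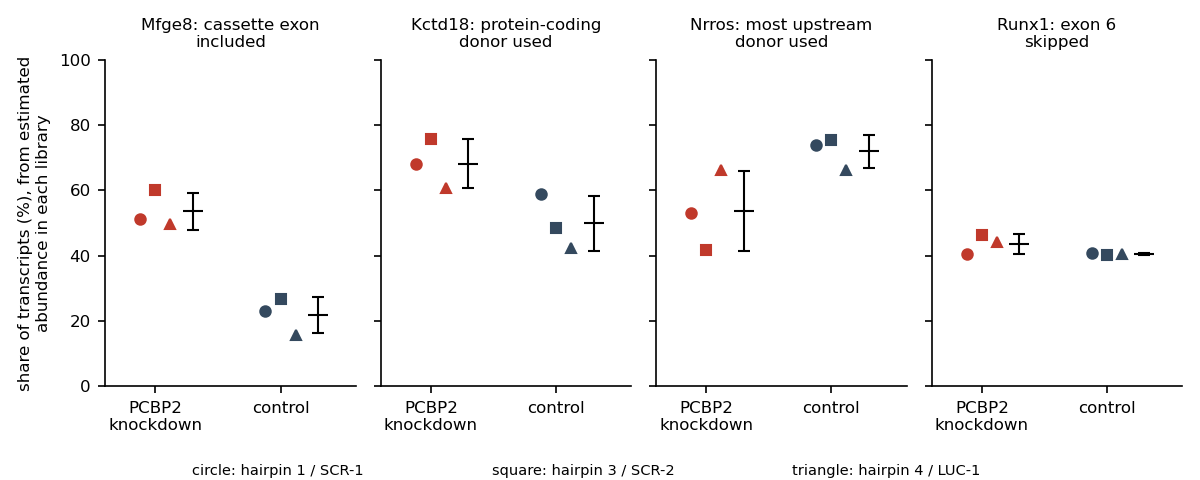
Share (%) of a gene's estimated transcript abundance that uses the named splice choice in each Day 0 library, PCBP2 knockdown left and control right, with mean and SD (n = 3 each). Mfge8 separates widely (49.6% to 60.03% against 15.8% to 26.7%), Kctd18 and Nrros narrowly, and Runx1 overlaps.

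Among gene lists written with earlier results of these data known, called members occurred in 2: Pcbp2 in the PCBP family list, and Cdc25b and Depdc1b in the list of CDC25, WEE1 and G2/M entry genes. The other 14 genes of that list did not pass, and the list's median log2 fold change was 0.03, beside -0.01 over all genes tested. Cdk1, the kinase that CDC25B activates, had 169, 177 and 174 CPM in the knockdown and 165, 156 and 165 CPM in the controls, a log2 fold change of 0.10 (SE 0.05; edgeR adjusted p = 0.582). Of 35 genes of mitosis and cytokinesis, 0 were called, 31 had values above 0, and the median was 0.05. At an unadjusted p under 0.05, 3 of them were higher (8.57%, beside 3.53% of all genes) and 0 lower. Prc1, a midzone microtubule bundler, and Cenpa, the centromeric histone, had log2 fold changes of 0.15 (SE 0.05) and 0.15 (SE 0.06). None of 38 DNA replication genes was called either, with 0 at an unadjusted p under 0.05 in either direction.

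Cholesterol and fatty acid synthesis genes had values below 0 throughout, without a call. All 31 members of that list had log2 fold changes below 0, against 51.4% of all genes tested, and their median was -0.17. At an unadjusted p under 0.05, 15 of the 31 were lower (48.4%, beside 5.28% of all genes) and 0 higher. Scd1, the stearoyl-CoA desaturase, had 192, 166 and 129 CPM in the knockdown and 278, 276 and 207 CPM in the controls. Its groups did not overlap, and its log2 fold change was -0.64 (SE 0.13; edgeR adjusted p = 0.189). The mevalonate pathway enzymes Mvk and Mvd had log2 fold changes of -0.44 (SE 0.10) and -0.43 (SE 0.10), and Fasn, the fatty acid synthase, of -0.30 (SE 0.08). DESeq2 called 4 members of the list lower. Without PCBP2-SH3, 9 of 31 were lower at an unadjusted p under 0.05 (beside 3.09% of all genes), with a median of -0.13. The count was 8 without SCR-1 (4.4% of all genes), 7 without SCR-2 (2.79%) and 9 without PCBP2-SH4 (6.55%). It was 21 without LUC-1 (5.87%), 20 without PCBP2-SH1 (5.48%) and 15 with the GC trend removed (3.52%). In all 18 libraries the count was 5 (1.78%), and in the 6 libraries alone it was 14 (4.84%). Beside this, the summed level of the 19 hepatocyte markers was 50.2 to 56.4 CPM in the knockdown and 58.9 to 70.5 CPM in the controls. Apoe, the highest of them, made up much of that gap, with means of 26.2 CPM in the knockdown and 35.2 CPM in the controls. Alb lay at 0.561 to 2.08 CPM in the knockdown and 1.31 to 2.67 CPM in the controls. Of the 8 hepatocyte markers tested, 5 had values below 0 and 3 above. Several other marker lists also lay mostly below 0, with 18 of 18 tested megakaryocyte and platelet markers, 18 of 19 macrophage and monocyte markers and 15 of 17 granulocyte markers. The remaining lists had 6 of 8 endothelial and stromal, 8 of 14 mast cell, basophil and eosinophil and 3 of 7 lymphoid markers below 0. The megakaryocyte and platelet markers summed to 762 to 860 CPM in the knockdown and 806 to 925 CPM in the controls. The part of these markers in the result was not tested.

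Cytosolic ribosomal protein genes had a median log2 fold change of -0.06. Of 79, 16 were lower at an unadjusted p under 0.05 (20.3%, beside 5.28% of all genes). Rpl13a had 632, 484 and 636 CPM in the knockdown and 740, 863 and 671 CPM in the controls, a log2 fold change of -0.38 (SE 0.10; edgeR adjusted p = 0.317). PCBP2-SH3 was the lowest library there. Without it, 3 of 79 were lower, beside 3.09% of all genes, and the median was 0.00 to 2 decimals. Rps12 was at 0 in PCBP2-SH3 and at 154 and 173 CPM in the other hairpins, against 260, 403 and 141 CPM in the controls. Ribosomal protein genes have near-identical pseudogene copies among which reads can be split, so such values are uncertain.

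Erythroid genes were not called. None of the 21 erythroid transcription factors, 15 heme synthesis genes, 17 tested iron-handling genes or 23 membrane and cytoskeleton genes was called, and their medians were -0.03, 0.01, -0.02 and -0.01. Over these 4 lists, 3, 0, 0 and 1 members were lower at an unadjusted p under 0.05, and 0, 0, 1 and 1 higher. Over all genes, 5.28% were lower and 3.53% higher. Ldb1, an adaptor of the GATA1 complex, had 254, 218 and 237 CPM in the knockdown and 273, 280 and 256 CPM in the controls, a log2 fold change of -0.19 (SE 0.06; edgeR adjusted p = 0.387). Of the α-globin genes, Hba-a1 averaged 1012 ± 331 CPM in the knockdown and 1254 ± 181 CPM in the controls (SD, n = 3 each). Its log2 fold change was -0.31, and -0.09 without PCBP2-SH3. Hba-a2 had 37.6, 55.9 and 46.6 CPM in the knockdown and 37.7, 34.6 and 42.2 CPM in the controls, and the groups overlapped. Its log2 fold change was 0.30 (SE 0.12; edgeR adjusted p = 0.507), and 0.15 without PCBP2-SH3. Of the 7 globin genes tested 0 were called, 6 had values below 0 and the median was -0.20. Hba-a1 and Hba-a2 are near-identical copies, and how reads were split between them is uncertain. Among the RUNX family and partners, Cbfa2t3, a corepressor, had a log2 fold change of -0.28 (SE 0.07; edgeR adjusted p = 0.297) and Runx3 of -0.21 (SE 0.08; edgeR adjusted p = 0.447).

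Splicing factors were likewise uncalled, with 0 of 37 SR proteins and core spliceosome genes and 0 of 37 hnRNPs and tissue regulators. At an unadjusted p under 0.05, 4 of the former were higher (10.8%) and 2 lower (5.41%). Of the latter, 5 were higher (13.5%) and 1 lower (2.7%). Over all genes, 3.53% were higher and 5.28% lower. U2af2, which recognises the polypyrimidine tract at 3′ splice sites, had 332, 299 and 338 CPM in the knockdown and 369, 386 and 384 CPM in the controls. Its groups were separate, at a log2 fold change of -0.23 (SE 0.06; edgeR adjusted p = 0.268). Mbnl1, a tissue splicing regulator, had 464, 496 and 467 CPM in the knockdown and 355, 363 and 472 CPM in the controls, where LUC-1 reached the level of the knockdown. Its log2 fold change was 0.26 (SE 0.09; edgeR adjusted p = 0.419).

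Genes tied to PCBP2, to interferon or to p53 were not called. Of 19 tested mRNAs and partners reported for PCBP proteins, 0 were called, with a median of 0.02, and Stat3, a cytokine-activated transcription factor, had a log2 fold change of -0.15 (SE 0.06; edgeR adjusted p = 0.453). PCBP2 is known in other cells as a regulator of the antiviral adaptor MAVS, and of 31 tested interferon and innate-sensing genes 0 were called, with 0 higher and 1 lower at an unadjusted p under 0.05. None of 22 p53 targets was called, with 0 higher and 3 lower at an unadjusted p under 0.05 (13.6%, beside 5.28% of all genes). Phlda3, a p53-induced inhibitor of AKT, had 28.1, 31.7 and 28.2 CPM in the knockdown and 36.5, 37.3 and 38.8 CPM in the controls. Its groups did not overlap, and its log2 fold change was -0.35 (SE 0.07; edgeR adjusted p = 0.168, called by DESeq2 at an adjusted p of 0.0044). The progenitor factor Spi1 had 32.1, 24.6 and 28.6 CPM in the knockdown and 36.2, 38.8 and 35.2 CPM in the controls, a log2 fold change of -0.37 (SE 0.11; edgeR adjusted p = 0.339).

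Markers of other cells were also not called. Of 19 tested macrophage and monocyte markers, 6 were lower at an unadjusted p under 0.05 (31.6%, beside 5.28% of all genes), and the median was -0.21. That count was 2 without PCBP2-SH3, 3 without SCR-2 and 9 in a fit of the 6 libraries alone. In these fits, 3.09%, 2.79% and 4.84% of all genes were lower. The complement gene C1qa had 1.31, 1.22 and 1.30 CPM in the knockdown and 1.52, 2.94 and 2.45 CPM in the controls, a log2 fold change of -0.86 (SE 0.24; edgeR adjusted p = 0.317). The summed level of the 25 listed markers nevertheless overlapped, at 240 to 278 CPM in the knockdown and 262 to 313 CPM in the controls, with 1 marker at 0 throughout. Of 17 tested granulocyte markers 3 were lower at an unadjusted p under 0.05 (17.6%, beside 5.28% of all genes). The 19 listed summed to 1680 to 1850 CPM in the knockdown and 1750 to 1950 CPM in the controls.

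**Figure D4:**
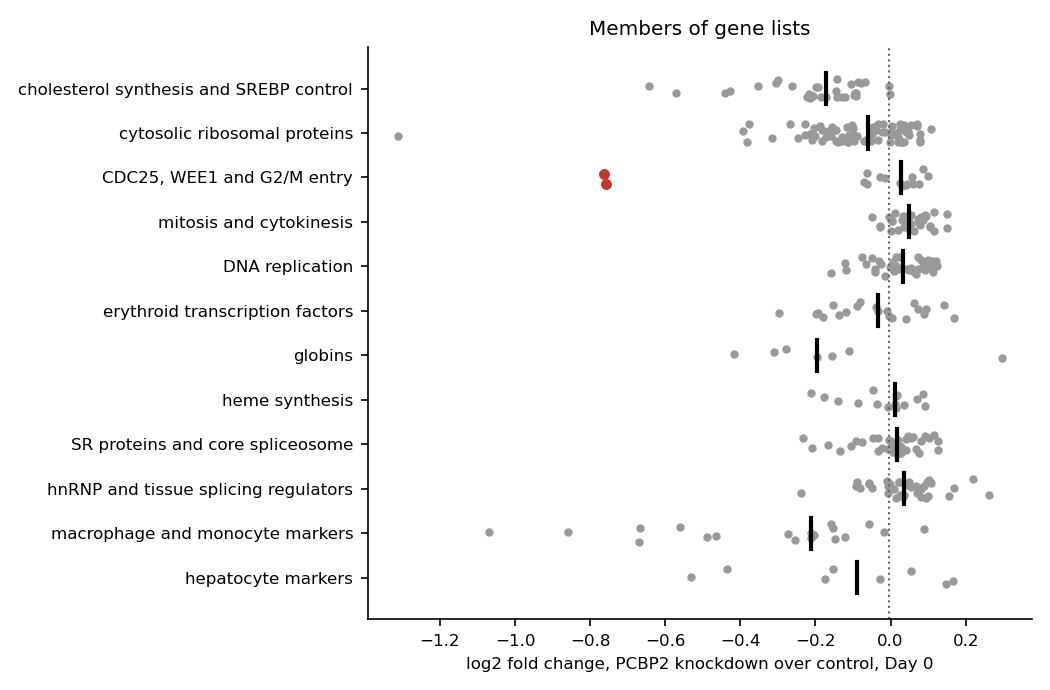
Log2 fold change (PCBP2 knockdown over control, Day 0) of each tested member of 12 gene lists, with black bars at list medians, a dotted line at the median of all genes (-0.01) and the called genes Cdc25b and Depdc1b in red. All 31 cholesterol and SREBP genes lie at or below 0, with a median of -0.17.

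The PCBP1 knockdown shares the Day 0 controls, so it was set against the PCBP2 knockdown directly. Against those controls, the PCBP1 knockdown had 225 genes called higher and 849 lower in the same fit. A difference between the knockdowns can therefore come from either of them. Relative to the PCBP1 knockdown, the PCBP2 knockdown had 203 genes higher and 57 lower out of 15782 (1.65% called; edgeR quasi-likelihood test). Each single library left out, except one PCBP1 library (hairpin 3), moved that count by over 1.5 times: without PCBP2-SH1, PCBP2-SH3 and PCBP2-SH4 it was 63, 508 and 134, and without PCBP1 hairpins 1 and 4 it was 72 and 50. Depdc1b was lower under PCBP2 hairpins than under PCBP1 hairpins, at a log2 fold change of -0.74 (edgeR adjusted p = 0.00137), with 26.2, 25.5 and 25.3 CPM under the PCBP1 hairpins. Btbd2 and Ly6e were lower too, at -0.69 (edgeR adjusted p = 0.0350) and -0.24 (edgeR adjusted p = 0.0378). Cdc25b and Clstn1 were not called, at -0.38 (edgeR adjusted p = 0.0551) and -0.17 (edgeR adjusted p = 0.1985). Cdc25b was also called lower in the PCBP1 knockdown against the controls, at -0.38 (edgeR adjusted p = 0.0247). The PCBP1 libraries held 35.8, 40.8 and 39.5 CPM of it. For Btbd2 the PCBP1 libraries held 5.83, 7.59 and 5.35 CPM, between both other groups.

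After 2 days of differentiation, 4 of the 6 genes were called lower again in PCBP2 knockdown cells relative to their own controls. Of all 17054 genes tested in that comparison, 477 were called lower and 163 higher (edgeR). In a fit of 12 libraries the Day 2 log2 fold changes of the 4 genes were -2.48 for Pcbp2, -1.09 for Cdc25b, -0.86 for Btbd2 and -0.82 for Depdc1b. Clstn1 and Ly6e had 0.06 (edgeR adjusted p = 0.867) and -0.02 (edgeR adjusted p = 0.949). A direct test of the change of the effect between the days called 0 of 17054 genes (0%; edgeR), with 1553 at an unadjusted p under 0.05 and 122 called by DESeq2. The common dispersion, a squared measure of the spread between libraries, was 0.0293 at Day 2 and 0.00749 at Day 0.

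**Figure D5:**
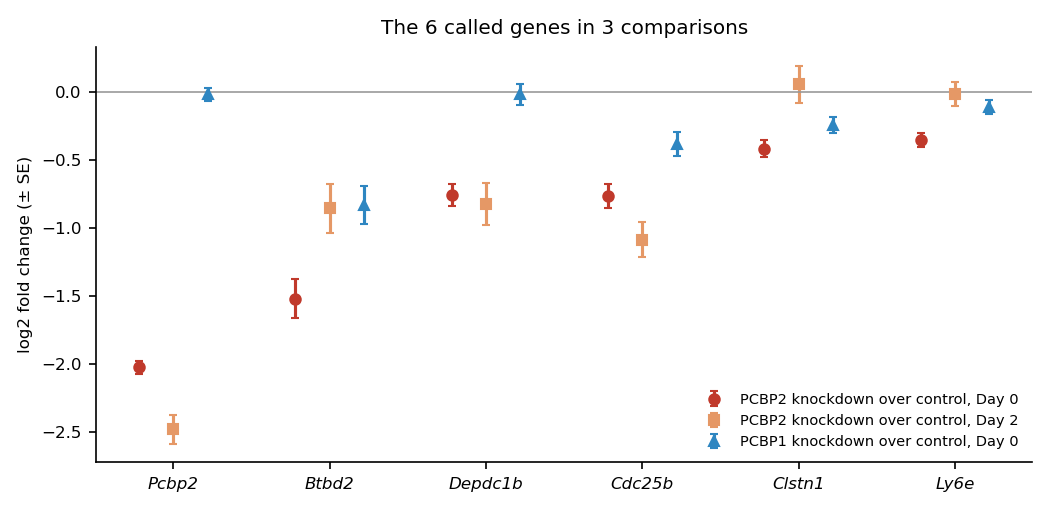
Fitted log2 fold change (± SE) of the 6 called genes for the PCBP2 knockdown over control at Day 0 and Day 2 and the PCBP1 knockdown over control at Day 0. Depdc1b lies near -0.8 under the PCBP2 knockdown on both days and near 0 under the PCBP1 knockdown, and Clstn1 and Ly6e are below 0 at Day 0 and near 0 at Day 2.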

How the data were processed

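TruSeq libraries were prepared from total RNA, per the labels. Per the submitters' processing notes, the tools were FastQC 0.11.9, Trim Galore 1.46.0, STAR 2.5.3a, SAMtools 1.9 and Salmon 0.11.3, on GRCm38. The authors deposited Salmon estimated counts per transcript, with effective lengths in bases (a signal-type value, used with the counts to get transcript shares), and a splicing table with PSI as a fraction, its change and a posterior probability, whose tool is not given in the sources used here. Estimated counts were summed to 46167 GENCODE M21 genes and rounded. Transcripts without a match, 0.479% to 0.579% of reads in the 6 libraries, were left out. edgeR 4.0.16 (R 4.3.3) with TMM factors and its expression filter was fitted to the 9 Day 0 libraries, whose PCBP1 knockdown adds residual degrees of freedom. CPM are TMM-scaled, except the marker sums and defining markers (Kit, Gata1, Cd3e, Mpo, Alb), which use library totals. A Benjamini-Hochberg adjusted p under 0.05 made a call. Members, lists, the fit and the rule for named genes (the PCBP family, called genes by fold change, up to 4 members of each list by p, genes with called splicing) were chosen with earlier results of these data known. Rps12, Kit, Gata1, Cd3e, Mpo and Alb were added beside that rule. The fit was tested on simulated data. DESeq2 1.42.0 and other alternatives are described below. Precision is limited by 3 libraries a group.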

Additional observations from a re-analysis of the deposited data

How the results depend on the processing

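With size factors of DESeq2, library totals alone or an average log2 CPM of at least 1, the PCBP2 knockdown count stayed at 6 calls, all shared. It was 88 with DESeq2, 296 with no filter on low counts, 7 with the GC trend removed (4 shared) and 4 in fits of all 18 or of the 6 libraries. Leaving out 1 library gave 4 to 25, with 25 without LUC-1. Pcbp2, Btbd2, Depdc1b and Cdc25b were called under all 14 alternatives, Clstn1 under 7 and Ly6e under 6, and of 49 genes refitted under each alternative only Pcbp1, uncalled at -0.03, changed sign, at 0.094 with the GC trend removed and -0.088 to 0.043 leaving out 1 library. Against the PCBP1 knockdown the count was 614 with DESeq2, 841 with no filter and 50 to 508 leaving out 1 library. The change of the effect between days gave 122 calls with DESeq2, 222 with no filter and 0 to 2 leaving out 1 library. Taking the hairpin as a replicate block gave 1 call. Deviations of same-hairpin libraries correlated across days at 0.0819, 0.175 and 0.135 for PCBP2-SH1, PCBP2-SH3 and PCBP2-SH4. The highest correlations with another hairpin were lower, at -0.0337, -0.0723 and 0.0172. For SCR-1, SCR-2 and LUC-1 the values were 0.0619, 0.0205 and -0.0343, against -0.0182, 0.084 and 0.0464. All were small, and the main fit did not take the shared number as a pairing. Of the variations in the authors' deposited table, 7 reached a posterior probability of 0.99, 27 reached 0.90, and 1 remained among binary variations without an intron. Leaving out 1 library, chosen after seeing the data, the isoform differences were 28.5 to 34.1 points for Mfge8, 14.5 to 22.7 for Kctd18, -24.5 to -12.4 for Nrros and 1.75 to 4.65 for Runx1. The cause of these shifts was not tested.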
